A study of Mus musculus with 4 samples.

Results

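Cells with the genes of gonadal mesenchyme at E11.5 are described here in a droplet single-cell RNA library. A cell was taken as mesenchyme when at least 3 of the 6 interstitial genes Col1a1, Col1a2, Acta2, Mfap4, Tcf21 and Pdgfra had a UMI (a unique molecular identifier, the tag by which RNA molecules are counted). The mean of these 6 values also had to exceed the mean of 5 supporting-cell genes (Fst, Wnt4, Wnt6, Irx3 and Runx1) and the mean of 5 mesothelial genes (Upk3b, Krt19, Krt7, Upk1b and Tm4sf5). At most 1 of 6 germ cell genes and at most 1 of the 3 endothelial genes Pecam1, Cdh5 and Esam could be above 0. This choice found 604 of the 4916 E11.5 cells (12.3%, exact Clopper-Pearson 95% interval 11.4 to 13.2%), in a series of 19387 cells.

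All cells came from XX gonads of C57BL/6 mouse embryos, which a brief TrypLE digestion had separated into single cells for the 10x Genomics 3′ kit, version 2. The labels give 4 stages from E11.5 to E14.5, each a day apart and with 1 library, and no mutant, transgene or treatment, and state neither how many embryos were pooled nor whether the adjoining mesonephros was trimmed away. With 1 library per stage there is no replicate, so no test was run, intervals cover counting error only, and stage and library cannot be told apart. The mesenchyme cells held 8209603 UMIs, with a median of 12167 per cell (8841 to 33569).

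The mesenchyme, or interstitium, of a developing gonad supplies its connective tissue, contractile and perivascular cells, and later the steroid-producing cells that surround the germ cell-bearing structures. Its cells lay down fibrillar collagen and proteoglycans, respond to PDGF, hedgehog and WNT ligands from neighbouring epithelium, and are recognised by factors such as TCF21 and COUP-TFII, the product of Nr2f2. In the mouse, E11.5 is the stage at which the XX gonad is still a thickened ridge on the mesonephros and its somatic lineages begin to separate.

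The cells were set against 3 classes built from the same gene groups in the same library. These were 2144 supporting-type cells, the precursors of granulosa cells by their genes, 667 mesothelial-type cells, which carry genes of the surface epithelium, and 168 endothelial-type cells. Together with 856 cells of no class they form the 3835 other somatic cells, in which germ cells and globin-rich cells were not counted. Levels are given as CPM, the UMIs of a gene per 1e+06 UMIs of all genes, summed over the cells of a class. A gene was called higher or lower when it had at least 50 UMIs over both classes and 20 CPM in the higher, differed at least 2-fold, and had exact Poisson intervals that did not overlap. Since the cells were chosen by their own RNA, these calls describe them and test nothing.

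The genes behind the choice were high by construction. Col1a1, a chain of type I collagen, stood at 157 CPM against 6.27 in the other somatic cells, and Tcf21, a basic helix-loop-helix factor of visceral mesenchyme, at 123 against 15.8 CPM. Pdgfra, a PDGF receptor, stood at 86.8 against 16.1 CPM. Of the 4 markers of the label, Nr2f2 had no part in the choice. It was at 310.5 CPM (299 to 323), 3.71-fold above the 83.8 CPM of the other somatic cells, and at 61.3, 129 and 71.2 CPM in supporting-type, mesothelial-type and endothelial-type cells. After each cell was thinned to 5000 UMIs, 70.2% of mesenchyme cells had an Nr2f2 UMI (66.4 to 73.8%) and 92.2% had one before thinning. The thinned share was 24.9% of supporting-type cells and 25.6% of endothelial-type cells, among which venous cells also use Nr2f2. Median depths were 12167, 13917 and 16800 UMIs in these 3 classes. The marker that the rule did not use was thus high in the class as a whole, though it varied within it, as gonadal factors did.

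The boundary of the class was gradual. With 3, 4, 5 and 6 of the interstitial genes above 0 there were 201, 244, 132 and 27 cells, and a further 122 cells with 2 of them met all else. Another 95 cells stayed out because the supporting genes were as high, and 229 because the mesothelial genes were. On the deposited natural log scale, 39 of the 604 cells lay within 0.1 of the limit on the group means and 52 cells outside it lay as near. When all cells were first thinned to 5000 UMIs, 312 met the rule, and 292 of these were among the 604.

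**Figure D1:**
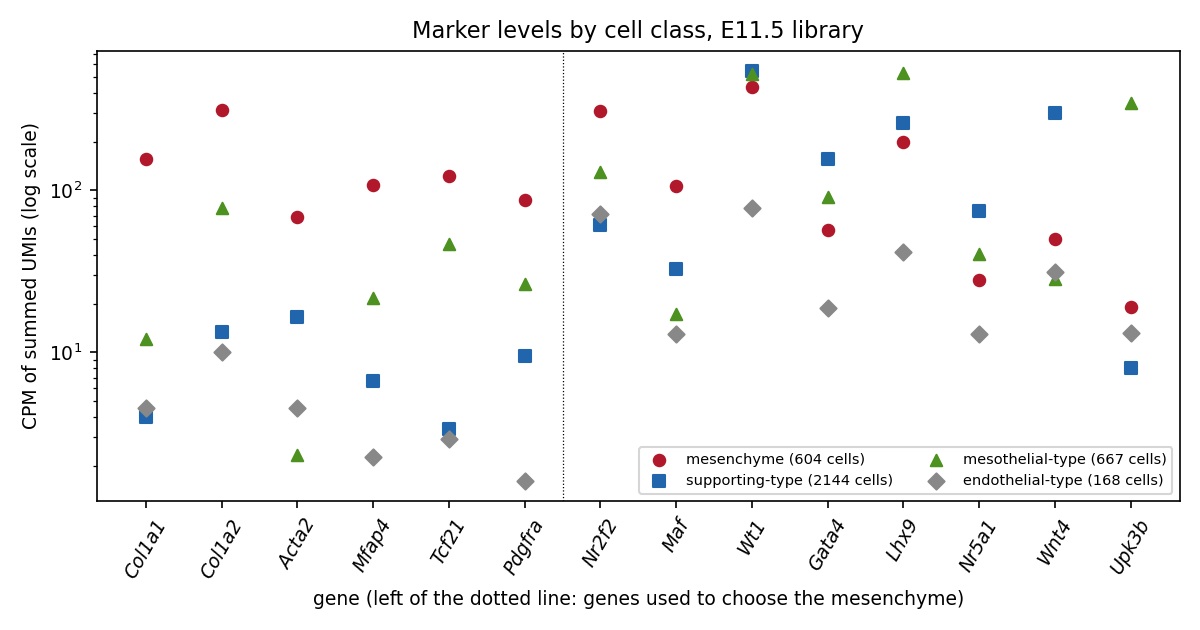
CPM of 14 genes (log axis) in mesenchyme (circles), supporting-type (squares), mesothelial-type (triangles) and endothelial-type cells (diamonds) of the E11.5 library; genes left of the dotted line chose the mesenchyme, and Wnt4 and Upk3b at the right end were also part of the rule. Of the others Nr2f2 and Maf are highest in the mesenchyme (310.5 and 106 CPM), while Gata4 and Nr5a1 are lower there than in supporting-type and mesothelial-type cells.

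The 250 bases before the transcription start of 3 of the label's marker genes, and of Itga8, an integrin chain high in these cells, are shown because these genes were high in the same cells. They are RefSeq sequences on build GRCm38.p6, 5′ to 3′ on the strand of the gene, and capitals mark each E-box (CANNTG, the core bound by basic helix-loop-helix factors such as TCF21) and each AGATAA, a core recognised by GATA factors, on either strand. The Tcf21 stretch lies at chr10:22820144-22820393 (minus strand), that of Nr2f2 at chr7:70366747-70366996 (minus), that of Pdgfra at chr5:75152001-75152250 (plus) and that of Itga8 at chr2:12301945-12302194 (minus).
Tcf21: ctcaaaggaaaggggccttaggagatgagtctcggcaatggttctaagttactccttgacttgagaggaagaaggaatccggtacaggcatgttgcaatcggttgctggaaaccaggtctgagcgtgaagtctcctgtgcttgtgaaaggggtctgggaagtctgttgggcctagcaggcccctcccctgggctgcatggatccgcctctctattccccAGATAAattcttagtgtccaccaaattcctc
Nr2f2: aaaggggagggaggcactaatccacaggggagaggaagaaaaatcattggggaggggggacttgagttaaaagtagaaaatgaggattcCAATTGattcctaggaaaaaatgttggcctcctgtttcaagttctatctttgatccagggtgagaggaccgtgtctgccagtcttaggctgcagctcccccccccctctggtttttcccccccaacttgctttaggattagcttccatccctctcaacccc
Pdgfra: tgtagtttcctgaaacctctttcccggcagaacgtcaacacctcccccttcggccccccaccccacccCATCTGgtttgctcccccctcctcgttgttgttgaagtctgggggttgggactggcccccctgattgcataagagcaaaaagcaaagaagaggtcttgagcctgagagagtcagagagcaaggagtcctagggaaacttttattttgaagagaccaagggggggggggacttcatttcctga
Itga8: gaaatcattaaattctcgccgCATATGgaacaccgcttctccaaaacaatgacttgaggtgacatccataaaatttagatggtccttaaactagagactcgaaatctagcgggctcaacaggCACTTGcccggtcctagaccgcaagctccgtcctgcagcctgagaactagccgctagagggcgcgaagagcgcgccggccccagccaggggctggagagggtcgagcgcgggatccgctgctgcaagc
Tcf21 holds 1 AGATAA and 0 E-boxes, Nr2f2 and Pdgfra hold 1 E-box each, and Itga8 holds 2. Of the genes called higher in the mesenchyme than in other somatic cells, the 6 rule genes aside, 224 of 339 had a promoter in the table, and 55.8% of these held an E-box against 53.7% of the 4695 promoters of all genes that met the minimums and 66.0% of all 27025 in the table. AGATAA was in 4.02%, 5.37% and 10.3%. A match describes these letters only, and the E-box share of the higher genes lay near that of all genes compared.

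Against the other somatic cells, 345 of 6039 genes were called higher in the mesenchyme (5.71%) and 396 lower (6.56%). The median log2 ratio over all genes compared was 0.09. These shares of all genes are the background for the counts of each gene list against the other somatic cells below. Of the 345, 211 (61.2%) were also called higher against both supporting-type and mesothelial-type cells, 128 against supporting-type cells only and 6 against mesothelial-type cells only. The largest ratio belonged to Lum, which encodes the collagen-binding proteoglycan lumican, at 32.8 against 0.41 CPM (80.0-fold). Col14a1 came next (39.6-fold). Other large ratios were those of Col6a3 (30.1-fold), the intermediate mesoderm factor Osr1 (22.3-fold) and the homeobox gene Alx1 (21.3-fold). Itga8 and Cntfr, a receptor chain for ciliary neurotrophic factor, were both at 72.5 CPM in the mesenchyme, against 3.53 and 3.76 CPM. Hic1, Pdgfrb, Foxp2, Nefm, Postn and Unc5c were also among the 15 largest ratios, from 19.1-fold for Hic1 to 13.7-fold for Unc5c. Matrix genes, transcription factors and the netrin receptor gene Unc5c were thus near the head of the list.

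**Figure D2:**
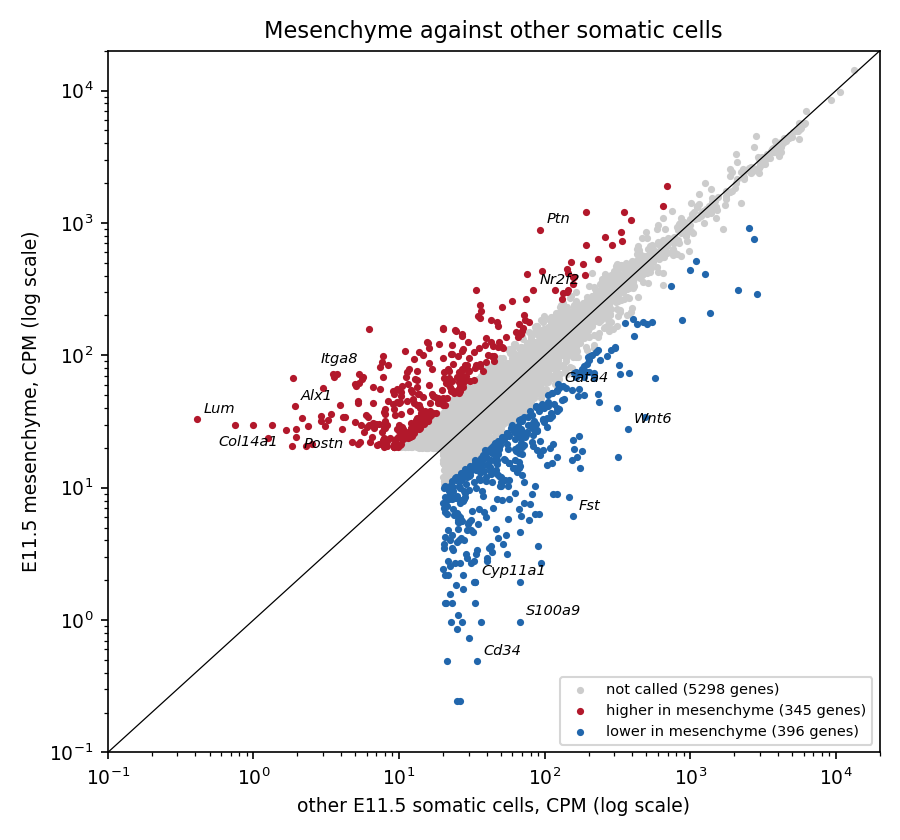
CPM of each gene compared in the other E11.5 somatic cells (x) and in the mesenchyme (y), both on log axes; red genes were called higher, blue genes lower, grey genes neither, and the line marks equal levels. Lum lies at 0.41 on x and 32.8 on y, while Fst, a gene of the rule, lies at 156 and 6.09.

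The genes with the lowest ratios belonged to other cell types. Cd34 stood at 0.49 CPM in the mesenchyme and 595 CPM in the endothelial-type cells. Ppbp, a platelet chemokine, stood at 0.85 and 461 CPM in the same classes. The myeloid genes S100a8 (2.68 CPM), S100a9 (0.97 CPM) and Lyz2 (0.73 CPM) were 35.5-fold, 69.4-fold and 41.1-fold lower than in the other somatic cells. Tmem174, Cst9 and Tgm3 were highest in the supporting-type cells, at 33.8, 59.9 and 114 CPM, and at 0.49, 0.97 and 1.95 CPM in the mesenchyme. BC100530 and Stfa1 were at 0.24 CPM each in the mesenchyme.

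Markers of other cell types were summed over the mesenchyme. The supporting, mesothelial and endothelial lists include genes by which the rule kept such cells out. The germ cell genes are those of the rule. The classes set beside the mesenchyme were chosen for high levels of the same genes. Low sums for these lists are therefore at least partly set by the choice and are no independent measure of purity. Of 10 supporting markers, 9 had a UMI, with a summed level of 246 CPM against 1954 CPM in supporting-type cells, and Foxl2 was at 0. Of 10 mesothelial markers, 9 had a UMI, at 97.7 CPM in sum against 988 CPM in mesothelial-type cells, and Msln was at 0. The 11 endothelial markers summed to 66.6 CPM against 3892 CPM in endothelial-type cells. The 11 immune markers summed to 9.38 CPM, with Ptprc at 0, and 6 of 10 mesonephric epithelial markers to 11.9 CPM, with Cdh16, Wnt7b and Cdh1 at 0. The 6 germ cell genes summed to 16.4 CPM against 2810 CPM in the germ cells. Globin stood apart, since 1 cell with 49.6% globin UMIs raised the globin genes of the mesenchyme to 2762 CPM from 1144 CPM without it, beside 1139 CPM in the other somatic cells. Without that cell 343 genes were higher and 395 lower.

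Transcription factors of the gonadal somatic lineages split into a group above and a group below the other somatic cells. Of 37 listed factors outside the rule, 25 met the minimums, 14 were higher and 3 lower, with a median log2 ratio of 1.22 beside 0.09 for all genes. Maf, a large MAF factor, was at 106 CPM (99.2 to 113) in the mesenchyme and at 32.7 CPM in the other somatic cells, 3.24-fold higher. Prrx1 (10.9-fold), Zeb2 (5.20-fold), Meis2 (4.52-fold), Snai2 (3.23-fold) and Nr2f1 (2.32-fold), factors of mesenchymal cells in many organs, were higher too. The 3 lower factors belong to the gonadal somatic programme. Gata4, needed for the genital ridge to form, was at 56.9 CPM (51.8 to 62.3) against 125 CPM, Nr5a1, the regulator of steroidogenic genes, at 28.1 against 61.0 CPM, and Emx2 at 91.6 against 202 CPM. Wt1, also needed for gonad formation, was at 436 against 493 CPM, and Lhx9, a LIM factor of the early gonad, at 198 against 319.5 CPM, neither of them called. Supporting-type cells held Gata4 at 157 CPM and mesothelial-type cells held Lhx9 at 533 CPM.

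Most matrix genes were higher in the mesenchyme. Over all genes compared with the other somatic cells, 5.71% were higher and 6.56% lower. Of 33 non-collagen matrix genes that met the minimums, 26 were higher and 0 lower, with a median log2 ratio of 1.73. They included Dcn, encoding decorin (108 against 27.0 CPM), Bgn, encoding biglycan (159 against 20.1 CPM), Emilin1, an elastic fibre glycoprotein (239.5 against 35.9 CPM), Mmp2, a matrix metalloproteinase (113 against 16.2 CPM), and Sparc (1899 against 692 CPM). Of 13 collagen genes outside the rule, 9 were higher, among them Col3a1 (258 against 59.5 CPM), Col6a2 (44.8 against 5.26 CPM) and Col26a1 (121 against 18.9 CPM). Col12a1, highest in the supporting-type cells at 58.0 CPM, and Col18a1, highest in the endothelial-type cells at 254 CPM, were lower in the mesenchyme, at 3.41 and 12.1 CPM. Fibrillar and type VI collagens were thus high, whereas the basement membrane genes Col4a1 and Col4a2 were at 30.2 and 43.1 CPM, against 28.9 and 34.6 CPM, and were not called.

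Receptors and ligands of the signalling pathways differed. In the PDGF list Pdgfrb was higher (56.5 against 3.00 CPM, 18.8-fold) and the ligand gene Pdgfa lower (15.5 against 36.4 CPM). Among hedgehog genes, of which 3 of 15 met the minimums, Gli3 was higher (32.4 CPM, 2.49-fold). The targets that report an active hedgehog signal stayed under the minimums, with Ptch1 at 8.04 against 7.80 CPM and Gli1 at 1.71 against 0.29 CPM, and the ligand gene Shh had 0 UMIs. Of 4 NOTCH genes compared, 0 were called. In the WNT list, 10 genes met the minimums and 4 were higher. These were the ligand gene Wnt5a (85.0 against 29.2 CPM), the receptor gene Fzd2 and the secreted antagonist genes Sfrp1 (156 against 24.1 CPM) and Sfrp2 (58.5 against 5.09 CPM). The ovarian WNT agonist gene Rspo1 was lower, at 26.9 against 88.8 CPM.

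Among 14 BMP and TGF-beta genes, Bmp4 (28.6 against 6.06 CPM), Tgfb2 (93.3 against 12.7 CPM), Fstl1 and Id2 were higher and Bmp2 and Inhbb lower. Of 24 growth factor, chemokine and guidance genes, 11 were higher and 5 lower. Ptn, encoding the heparin-binding growth factor pleiotrophin, was at 892 against 93.1 CPM (9.58-fold). Cxcl12, a chemokine that attracts migrating germ cells, was at 125 against 15.6 CPM (8.04-fold), whereas Kitl, the ligand of the germ cell receptor KIT, was lower, at 23.0 against 158 CPM, and was at 235 CPM in the supporting-type cells. Genes for 2 factors that act on germ cells were therefore high in different somatic classes of this library. Slit2, Robo2, Ednra, Fgfr1, Efna5, Igf2r, Igfbp5, Igfbp7 and Plxna2 were the others called higher, and Igf1, Igfbp2, Fgfr2 and Plxna4 the others called lower.

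Of 7 retinoic acid genes, Crabp1, a cytoplasmic retinoic acid-binding protein, was among those higher, at 39.2 against 7.96 CPM, while the reductase gene Dhrs3 was lower. Aldh1a2, the enzyme that makes retinoic acid, was at 58.8 CPM against 71.0 CPM and was not called; it was at 206 CPM in mesothelial-type and 27.1 CPM in supporting-type cells. Of 6 contractile and perivascular genes outside the rule, 5 were higher, including Des, encoding desmin (61.4 against 5.29 CPM), and Rgs5, a pericyte marker (60.7 against 4.95 CPM). Myl9 was lower. Of 4 steroidogenic genes 0 were higher and 2 lower, Nr5a1 and Cyp11a1, the latter at 1.95 against 33.4 CPM. The 5 steroidogenic markers summed to 8.04 CPM, with Cyp17a1 and Insl3 at 0.

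Many cell cycle genes were called higher in the mesenchyme than in the supporting-type cells. Against supporting-type cells, 662 of 6168 genes were called higher (10.7%) and 600 lower (9.73%), and against mesothelial-type cells 323 of 5876 were higher (5.5%) and 167 lower (2.84%). Of 21 G2 and mitosis genes, 20 were higher than in supporting-type cells, where Mki67 was at 8.69 CPM beside 46.2 CPM in the mesenchyme, and 0 of 22 were called against mesothelial-type cells. Of 9 genes of G1 cyclins and CDK inhibitors compared with supporting-type cells, 4 were higher and 3 lower. The lower ones were the CDK inhibitor genes Cdkn1a, Cdkn1b and Cdkn1c, at 8.89 against 128 CPM, 11.6 against 79.2 CPM and 923 against 3747 CPM. After thinning to 5000 UMIs, 41.1% of mesenchyme cells (37.1 to 45.1%) had UMIs of at least 5 of the 22 listed G2 and mitosis genes, beside 6.62% of supporting-type, 54.4% of mesothelial-type (50.6 to 58.3%) and 49.4% of endothelial-type cells. For the 20 S phase genes the shares were 62.1% of mesenchyme cells (58.1 to 66.0%), 30.9% of supporting-type, 81.3% of mesothelial-type (78.1 to 84.2%) and 48.2% of endothelial-type cells. Both shares of the mesenchyme thus lay above those of supporting-type and below those of mesothelial-type cells, although no listed gene of either phase passed the limits for a call against the latter. The part of RNA free in the droplets in these shares was not tested. Under a scaling by the median gene ratio, which moved the median of all genes by 0.15 on the log2 scale, the supporting-type comparison gave 548 higher and 735 lower genes.

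HOX genes, which mark position along the body axis, differed between these comparisons as well. Of 9 that met the minimums against supporting-type cells, 9 were higher, such as Hoxd9 (153 against 29.8 CPM) and Hoxc8 (99.4 against 29.9 CPM). Of 10 compared with mesothelial-type cells 1 was higher, Hoxa5 (30.2 against 10.6 CPM), and 2 lower, Hoxd8 and Hoxd9, the latter at 361 CPM there. Among imprinted genes compared with the other somatic cells, Dlk1 (348 against 157 CPM), Meg3 (1214 against 353 CPM) and Plagl1 (76.6 against 22.1 CPM) were higher, Cdkn1c and Peg10 lower, and 12 of 17 were not called.

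**Figure D3:**
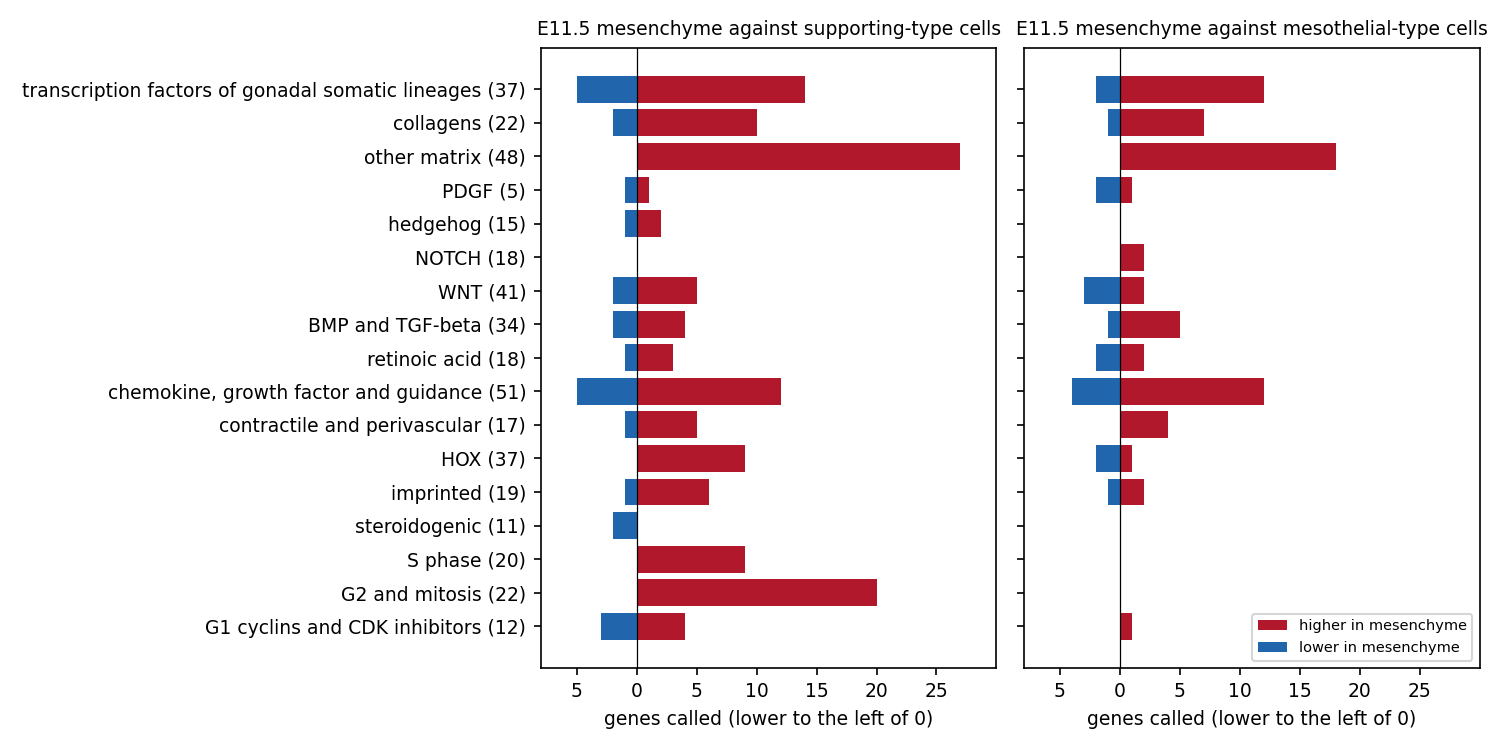
Number of genes called higher (right, red) and lower (left, blue) in the E11.5 mesenchyme than in supporting-type cells (left panel) and mesothelial-type cells (right panel) for each gene list, with the list's size outside the rule in parentheses. G2 and mitosis genes are 20 higher in the left panel and 0 in the right, HOX genes 9 and 1, while other matrix genes are 27 and 18 higher with 0 lower in both. Of all genes compared, 10.7% were higher and 9.73% lower in the left comparison, and 5.5% and 2.84% in the right.

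Fewer genes were called against the mesothelial-type than against the supporting-type cells. Sox11 (390 CPM in the mesenchyme, 332 in mesothelial-type cells) was called against supporting-type and not against mesothelial-type cells. The largest ratios against them, besides Col6a3 and Col14a1, included Foxc2, a forkhead factor of mesenchyme and vessels (24.2 against 0.45 CPM), Sparcl1 (198 against 4.21 CPM) and Ngfr, the low-affinity neurotrophin receptor (98.7 against 2.42 CPM). Ngfr UMIs were in 35.6% of thinned mesenchyme cells, 1.50% of mesothelial-type cells, 1.07% of supporting-type cells and 0% of the 168 endothelial-type cells. For this count of 0 the limit was set at 3 cells, 1.79% of the 168, and is not a Clopper-Pearson limit. Lower genes outside the rule were led by Stfa1, S100a9 and S100a8, which belong to myeloid cells, then Fah, Cfap161 and Ooep. Myl7, an atrial myosin light chain, was at 37.8 against 278 CPM.

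The mesenchyme was not homogeneous. Clustering its 604 cells alone gave 6 sub-clusters of 172, 141, 112, 79, 69 and 31 cells. Only the listed S phase, G2 and mitosis, and G1 genes were left out of the features, so other cell cycle genes could still separate cells. They are described by number, since their genes also defined them. Tcf21 was at 138, 127, 124, 134, 79.2 and 129 CPM in sub-clusters 1 to 6, and Wt1 at 462, 459, 488, 508, 192 and 510 CPM. Both were lowest in sub-cluster 5. Tcf21 was one of the genes that chose the cells, so its presence in each sub-cluster is partly set by the rule.

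Other genes divided it. Gata4 was at 19.8, 30.8 and 28.6 CPM in sub-clusters 1, 2 and 5 and at 102, 97.8 and 118 CPM in sub-clusters 3, 4 and 6. Lhx9 was at 55.0, 67.1 and 33.5 CPM in the first 3 of these and at 350.4, 481 and 461 CPM in the others. Nr5a1 followed the same order, with at most 13.9 CPM and then 52.5, 48.9 and 48.7 CPM. Nr2f2 was at 443 and 389 CPM in sub-clusters 1 and 2 and at no more than 227 CPM in 3, 4 and 6. In sub-cluster 5 it was at 244 CPM (217 to 273), an interval that overlapped those of sub-clusters 3, 4 and 6. Gata4, Lhx9 and Nr5a1 were thus low together in sub-clusters 1, 2 and 5 and high together in 3, 4 and 6. Several genes with large ratios over the other somatic cells ran the opposite way. Lum was at 76.9, 53.6 and 13.1 CPM in sub-clusters 1, 2 and 5 and at 6.56, 0 and 0 CPM in 3, 4 and 6. Osr1 was at 64.6, 48.7 and 13.1 CPM and then 7.22, 4.29 and 1.74 CPM, and Itga8 at 114, 123 and 66.9 CPM and then 30.8, 6.87 and 31.3 CPM. Even Col1a1, a gene of the rule, ranged from 303 CPM in sub-cluster 1 to 36.5 CPM in sub-cluster 6. Sub-clusters 1, 2 and 5 held 382 of the 604 cells. For these cells, most of the class, the gonadal part of the label was not tested, since the labels do not say whether the mesonephros was removed.

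The same genes are given here cell by cell. They were picked for their levels in the sub-clusters of these cells, so this restates the division in shares and adds no evidence for it. In the cells thinned to 5000 UMIs, 252 had a UMI of Lhx9 and 352 had none. Cells with Lhx9 had a Gata4 UMI in 33.3% (27.5 to 39.5%) and an Nr5a1 UMI in 20.6% (15.8 to 26.2%), against 13.1% (9.73 to 17.0%) and 4.55% (2.62 to 7.28%) of cells without it. Col1a1 UMIs were in 26.2% of cells with Lhx9 (20.9 to 32.1%) and 60.8% of cells without it (55.5 to 65.9%), Itga8 UMIs in 15.1% and 35.8%, and Alx1 UMIs in 5.56% and 22.4%. Nr2f2 UMIs were in 61.1% (54.8 to 67.2%) and 78.1% (73.4 to 82.3%). Tcf21 UMIs were in 49.6% (43.3 to 55.9%) and 40.6% (35.5 to 46.0%), intervals that overlapped. The shares of Col1a1 and Tcf21 are conditioned by the rule, which asked for 3 of 6 genes that include them. The median depth before thinning was 13002.5 UMIs in cells with Lhx9 and 11410 in cells without it. Lhx9 UMIs were found in 11.9% of the thinned endothelial-type cells.

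**Figure D4:**
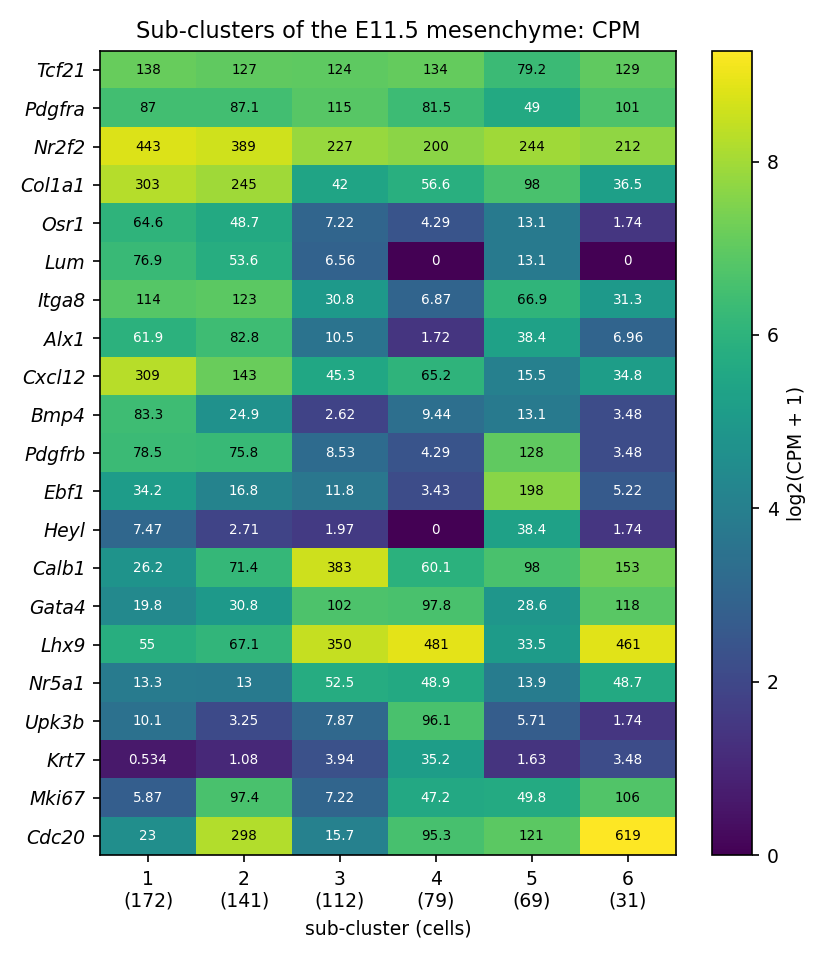
CPM of 21 genes in the 6 sub-clusters of the E11.5 mesenchyme (columns, with cell numbers), printed in each cell and coloured by log2(CPM + 1). Osr1, Lum, Itga8 and Alx1 are high in columns 1 and 2, Ebf1, Heyl and Pdgfrb in column 5, and Gata4, Lhx9 and Nr5a1 in columns 3, 4 and 6.

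The leading genes of a sub-cluster are those with the largest ratio over the rest of the class, among the genes called higher. The leading genes of sub-cluster 1 included Bmp4 (83.3 CPM, 6.65-fold above the other mesenchyme cells), the WNT modulator Dact1, the neurofilament gene Nefm and Cxcl12 (309 against 71.0 CPM). Sub-cluster 2 was led by Gm26737, Angptl7, the angiotensin receptor gene Agtr2, Gas2l3 and Fam83d, and had Mki67 at 97.4 CPM against 5.87 CPM in sub-cluster 1. Of these, Gas2l3 and Fam83d were higher still in sub-cluster 6, at 48.7 and 59.2 CPM beside 37.9 and 54.7 CPM. Sub-clusters 1 and 2 had Col1a1, Lum and Osr1 highest and differed in Mki67. Sub-cluster 5 was led by the NOTCH effector Heyl (38.4 against 3.31 CPM), the transcription factor gene Ebf1 (198 against 17.2 CPM), Plvap, Igfbp7 and Etv2. It also had the highest level of the 8 perivascular markers, 203 CPM in sum, of which Rgs5 gave 129.8, Kcnj8 25.3 and Abcc9 16.3 CPM. Outside those 8, Pdgfrb was at 128 and Des at 139.6 CPM. Higd1b was at 0 in the mesenchyme, and none of the perivascular markers was among the 10 leading genes. Abcc9 had a larger ratio over the rest of the class than Heyl. At 16.3 CPM it was under the 20 CPM needed for a call, so its absence from the leading genes reflects the minimums. The ratios of Kcnj8 and Rgs5 were smaller than those of the 10 leading genes. A perivascular identity was not tested, and no cell type name is given. The 11 endothelial markers summed to 87.4 CPM in sub-cluster 5.

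Sub-clusters 3, 4 and 6 made up 222 cells. Sub-cluster 3 held the globin-rich cell, and without that cell it was led by Myl1, Cst8, Rgcc, Cpa1 and Calb1, the calcium-binding protein calbindin (378 against 68.7 CPM). It had 9 of the 13 cells of the class called as doublets. Its 10 supporting markers summed to 455 CPM, the highest of the 6 sub-clusters, beside 1954 CPM in supporting-type cells. Sub-cluster 4 was led by the surface genes Krt7 (35.2 against 1.85 CPM), Lrrn4, Bnc1, Tm4sf5 and Upk3b (96.1 against 6.41 CPM). Its mesothelial markers summed to 378 CPM, between 97.7 CPM for the class and 988 CPM in mesothelial-type cells. These leading genes go against the name mesenchyme for its 79 cells. The 4 mesenchyme markers summed to 472 CPM in sub-cluster 4 and were as low in 3, 5 and 6 (509, 470 and 478 CPM), beside 970 and 848 CPM in 1 and 2. Median depths were 10302.5, 12540, 12003, 13642, 17289 and 18536 UMIs in sub-clusters 1 to 6. The median number of interstitial genes above 0 was 3 in sub-cluster 6, the deepest, and 4 in the others. With members that had 2 or more of the 5 mesothelial genes left out, 53 at E11.5, 369 genes were higher than in the other somatic cells and 415 lower, and 367 and 185 against mesothelial-type cells. With such members left out of both stages, 108 and 72 genes were called at E12.5, 73 and 93 at E13.5 and 206 and 152 at E14.5. Sub-cluster 6 was led by the WNT antagonist gene Dkk1 (34.8 against 5.39 CPM) and by Tuba1c, Pif1, Troap and Cdc20, the last an activator of the anaphase-promoting complex. Aurka, Plk1, Ube2c and Ccnb1 of the G2 and mitosis list were also among its 10 leading genes, and Nusap1 among those of sub-cluster 2. Sub-clusters 2 and 6 thus differed from the rest in G2 and mitosis genes although the listed ones were left out of the features.

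The same rule found 446 mesenchyme cells at E12.5 (9.21% of cells), 1030 at E13.5 (21.3%) and 542 at E14.5 (11.3%), at median depths of 12774.5, 9066 and 10136 UMIs. Compared with E11.5, 98 of 5961 genes were called higher at E12.5 (1.64%) and 64 lower (1.07%). At E13.5, 63 of 5829 were higher (1.08%) and 88 lower (1.51%), and at E14.5 206 of 6041 were higher (3.41%) and 139 lower (2.3%). Scaling by the median gene ratio changed these to 140 and 47, 97 and 48, and 251 and 103. With the change of the other somatic cells subtracted, 12 and 30 genes were called at E12.5 and 56 were lower at E13.5. All 3 comparisons share the E11.5 cells.

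The genes of the E11.5 cells went different ways. Nr2f2 was at 310.5, 321, 373 and 310.3 CPM over the 4 stages and was called at none. Maf was at 106, 130, 190 and 175 CPM and was not called either. Nr2f1 was at 83.0, 50.3 and 29.2 CPM and then 5.72-fold below E11.5 at E14.5, and was called lower at E13.5 and E14.5. Alx1, among the genes that marked the E11.5 mesenchyme most, was at 41.2, 27.9, 20.3 and 5.05 CPM, and Lhx9 at 198, 133, 117 and 87.0 CPM. The mesenchyme thus had lower levels of several E11.5 factors at E14.5 while Nr2f2 was not called. Most listed factors were not called: of 26 compared at E14.5, 2 were higher, 4 lower and 20 neither. Their median log2 ratio was -0.21 beside -0.12 for all genes. Lhx9 in the other somatic cells was at 319.5, 316, 312 and 243 CPM.

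Several matrix genes were higher at the later stages. Col1a1 was at 157, 162, 346 and 481 CPM, although the rule used it, and Mgp, an inhibitor of matrix calcification, at 34.6, 45.9, 170.0 and 269.5 CPM. Eln, encoding elastin, was at 10.1, 17.4, 46.6 and 87.0 CPM, and Col6a1 at 39.1, 53.7, 138 and 219 CPM. Collagens counted 6 higher and 0 lower of 12 at E14.5, outside the rule, beside 3.41% higher and 2.3% lower of all genes. Of 36 non-collagen matrix genes compared at E14.5, 7 were higher, 3 lower and 26 neither, with a median log2 ratio of 0.18. That list, outside the rule, summed to 7159 CPM at E14.5 and 7201 CPM at E11.5. At E12.5 it counted 1 higher and 3 lower of 33. Dcn and Lum dipped first, with Lum at 32.8, 10.0, 53.2 and 101 CPM and Dcn at 108, 44.3, 151 and 351 CPM. Both were called lower at E12.5 and higher at E14.5.

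Several signalling genes of the E11.5 cells were lower in the next library. Bmp4 was at 28.6, 3.92, 5.85 and 8.31 CPM, Cxcl12 at 125, 30.7, 69.3 and 46.8 CPM, and Gpc3, a glypican that binds growth factors, at 681, 262, 204 and 238 CPM. Nefm was at 33.6, 4.39, 4.09 and 1.96 CPM and Shisa3 at 20.6, 2.98, 2.14 and 1.14 CPM. The low levels of these genes in the other somatic cells were lower too, going from 2.17 to 0.265 CPM for Nefm at E12.5 and from 1.84 to 0.101 CPM for Shisa3 at E14.5. Sfrp2 was at 58.5, 16.8, 26.7 and 30.1 CPM. Bmp4, Cxcl12, Nefm and Sfrp2 were also among the 10 leading genes of sub-cluster 1 at E11.5. Calb1, a leading gene of sub-cluster 3, was at 127, 39.2, 6.34 and 7.99 CPM. Igf1 ran the other way, at 21.9, 32.0, 49.2 and 84.4 CPM, as did Sfrp1, at 156, 198, 307 and 380.2 CPM. Nfix, a nuclear factor I gene, was at 3.65, 11.1, 26.9 and 60.3 CPM.

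**Figure D5:**
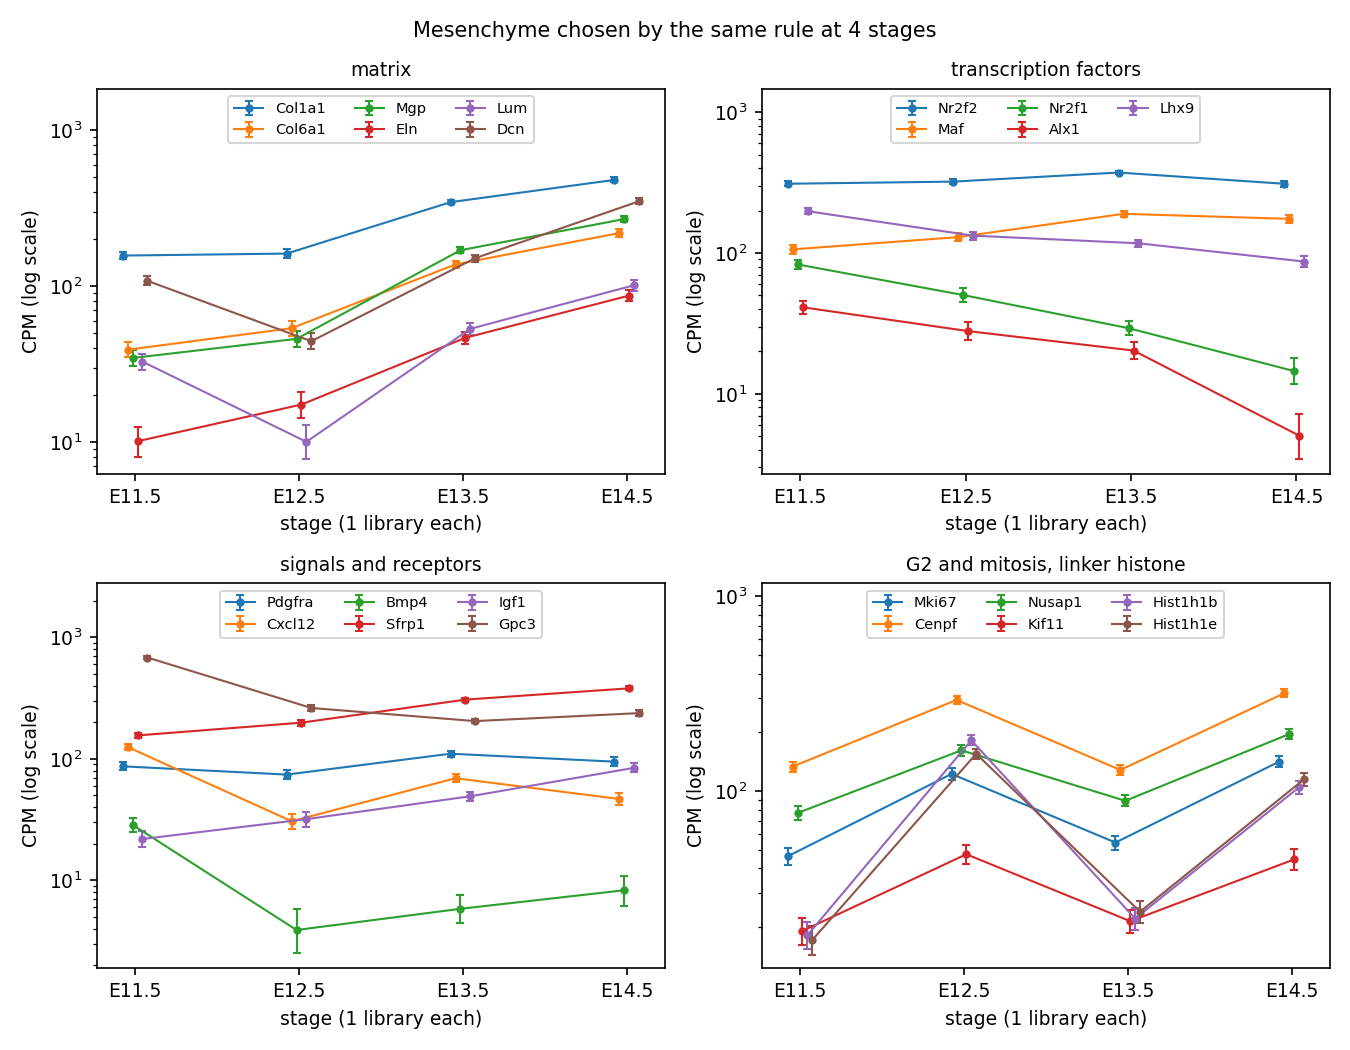
CPM (log axis) of 23 genes in the mesenchyme at 4 stages, 1 library each, with exact Poisson intervals for counting error. Col1a1, Mgp, Eln and Col6a1 are highest at E14.5, Alx1 and Nr2f1 are lowest there, and the cell cycle and histone genes alternate, with Hist1h1b at 18.1, 182, 22.1 and 104 CPM.

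Cell cycle and linker histone genes alternated between libraries. Mki67 was at 46.2, 122, 54.3 and 141 CPM and Hist1h1e at 17.2, 155, 24.0 and 115 CPM in the mesenchyme. The other somatic cells also alternated, with Mki67 at 24.6, 46.6, 21.0 and 69.2 CPM and Hist1h1e at 12.9, 76.7, 14.8 and 53.3 CPM. After thinning, 41.1%, 63.2%, 31.1% and 59.6% of mesenchyme cells had UMIs of at least 5 G2 and mitosis genes. Since both sets of cells alternated, the part of stage and the part of the library cannot be told apart. Globin genes also changed with the library, since Hbb-bs was at 78.1, 205, 137 and 3299 CPM in the mesenchyme and at 29.6, 44.1, 159.9 and 1007 CPM in the other somatic cells. Among members with less than 10% globin UMIs it was at 29.0, 36.1, 137 and 567 CPM.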

How the data were processed

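Gonads of 4 stages were profiled with 1 library each, and the authors deposited 1 table of 19321 genes and 19387 cells. Its values are natural log values, ln(1 + UMIs / UMIs of the cell × 10000), as the deposited values themselves show, since back-transformed cells sum to 10000. All values above 0 (100%) were whole multiples of the smallest in their cell at a relative tolerance of 1e-06, so UMI counts were recovered. Cell Ranger 2.2.0 and mm10 are named per the submitters' processing notes, while cell calling and filters are not given in the sources used here. The prefix of each cell name gave its stage, as the labels state.

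The members and lists were chosen with earlier results of these data known. Classes were formed from the deposited values, and UMIs were summed per class, with no count model. Named genes are those of the lists, the largest and smallest ratios, and the 5 leading genes of each sub-cluster. Some genes of these sets are not reported here. Lhx9 was chosen for the cell-by-cell split after the values had been seen. Thinning drew 5000 UMIs per cell (seed 1, 0 cells left out). Sub-clusters came from Scanpy 1.11.5 with Leiden 0.10.2 at resolution 0.5 (2000 variable genes, 20 components, 15 neighbours). Doublets were kept. Scrublet at an expected rate of 0.06 called 13 of 604 (2.15%) and 2.40% of other somatic cells, which were left out only as an alternative. Of the E11.5 barcodes 101 occur in another library, 14 of them in the mesenchyme. Intervals are 95% exact Poisson or Clopper-Pearson. Promoters come from a RefSeq table on GRCm38.p6.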

Additional observations from a re-analysis of the deposited data

How the results depend on the processing

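Thinning all cells to 5000 UMIs before applying the rule gave 312 members. At a ratio of at least 4 the higher and lower genes numbered 121 and 147 against other somatic, 267 and 242 against supporting-type and 124 and 44 against mesothelial-type cells, and 5 and 6, 15 and 8, and 54 and 20 at E12.5, E13.5 and E14.5 against E11.5. With no CPM minimum they numbered 896 and 1557, 1470 and 1576, 737 and 456, 219 and 199, 255 and 207, and 489 and 306 in the same order. Median-of-ratios scaling gave 97 and 48 at E13.5, and 298 and 459 against the other somatic cells in place of 345 and 396. Subtracting the change of the other somatic cells gave 12 and 30 at E12.5 and 56 lower at E13.5; the cause of this drop was not tested. Shares after thinning to 2000 UMIs and without thinning were 44.4% and 92.2% for Nr2f2, 10.4% and 42.9% for Gata4, 56.3% and 96.4% for Wt1, and 6.62% and 28.6% for Mki67. Resolution 1 gave 10 sub-clusters. Of 770 recomputed log2 ratios of single genes, 685 stayed within their interval, 80 moved outside it and 5 changed sign. These were Ppbp (0.83 with supporting-type and mesothelial-type cells weighted equally) and, with the change of other somatic cells subtracted, Nefm at E12.5 (0.095), Caln1 (-0.50), Cited4 (-0.40) and Shisa3 (0.022) at E14.5; the cause was not tested. Leaving out called doublets, globin-rich members or members with 2 or more mesothelial genes (the last 2 added after the data were seen) moved no count of calls by more than 1.5 times. No paired analysis was possible because each stage has 1 library and no result comes from a test. Depth limits single cells: a gene at 5000 UMIs per cell is missed in many cells that hold it at full depth.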

Other observations

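Further genes differed between the E11.5 and E14.5 mesenchyme. The 10 largest ratios outside globin included Caln1 (0.97 and 21.3 CPM), Clu, the chaperone clusterin (1.95 and 41.4 CPM), Srpx2 (1.58 and 21.2 CPM), Itih5, a hyaluronan-associated matrix protein (5.12 and 56.4 CPM), Htra1, a secreted serine protease (5.12 and 52.0 CPM), and Nkd2 (2.19 and 25.3 CPM). In the other somatic cells Caln1 was at 0.20 and 6.34 CPM, Srpx2 at 1.67 and 1.76 CPM and Itih5 at 0.72 and 4.07 CPM, whereas Clu was at 33.1 and 102 CPM and Gng13 at 77.5 and 675 CPM. Gfra3, a co-receptor for the ligand artemin, was at 21.7 CPM in the E11.5 mesenchyme and 0.33 CPM at E14.5. Asb4 was at 111 and 16.3 CPM.

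Igf2 was at 113, 334, 97.6 and 124 CPM over the 4 stages of mesenchyme and at 113, 416, 147 and 127 CPM in the other somatic cells, with the E12.5 library highest in both. The basement membrane genes Col4a1 (30.2 and 87.7 CPM) and Col4a2 (43.1 and 94.9 CPM) were higher in the E12.5 than in the E11.5 mesenchyme, beside 28.9 and 59.7 CPM and 34.6 and 62.6 CPM in the other somatic cells.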
